A study of Mus musculus with 16 samples.

Results

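Chemokine ligands and their receptors were followed in visceral fat and in red gastrocnemius, the oxidative portion of a calf muscle, of female mice with a muscle-specific deletion of MyD88 and of Cre controls. The members were the protein-coding genes whose symbol in the GENCODE M21 annotation begins with Ccl, Cxcl, Ccr or Cxcr and a digit. These were 59 of the 55536 genes counted, 42 ligands and 17 receptors with 54 different symbols. Of the 59, 7 are identifiers on unplaced scaffolds, and none of these 7 had a count. A further 3 rows carry such a symbol without being annotated as protein-coding (Cxcl11, Ccl19-ps1 and Ccl19-ps3) and were left out.

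Chemokines are small secreted proteins that guide leukocytes to a tissue and within it. Each ligand binds receptors of a family that signals through inhibitory G proteins, and the receptors on a leukocyte decide which ligands it follows. In adipose tissue and in muscle they are known for drawing in monocytes and macrophages, through CCR2 above all, and several ligand genes are induced by NF-kB or by interferon. MyD88 passes signals from Toll-like receptors and from the receptors of the interleukin-1 family on to NF-kB.

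There were 4 mice labelled Conditional MusMyD88-/- (knockout below) and 4 labelled Cre-Control (control below), and 1 library of each tissue from each mouse, 16 in all. All 8 mice were female, had 5 weeks of wheel running and were then held for 8 days in a small cage that restricted movement. The sources used here give neither the Cre driver, the deleted exons nor the ages. By its title the study asks how the loss of MyD88 in muscle bears on the gain of fat when female mice become inactive. Values of single libraries are given below in the order of mice 139, 958, 960 and 29 for knockouts and of mice 131, 137, 138 and 11 for controls. Nothing in the sources says how the animals were drawn, so p-values by genotype within a tissue measure the spread between these mice. The main tests over both tissues had no term for the mouse. Their p-values measure the spread between libraries of the same tissue and genotype.

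Total counts ranged from 13242243 to 19114782 in fat and from 15203806 to 21747345 in muscle. Levels are CPM, counts scaled to library size with TMM factors from all 16 libraries, and levels of different genes are compared only as CPM per kb of exon. Myd88 itself stood at 2.94 ± 0.330 CPM in knockout muscle and 4.03 ± 0.982 CPM in control muscle, a log2 fold change of -0.47 ± 0.20 (SE) with an edgeR adjusted p of 0.949. In fat it was at 10.3 ± 0.814 CPM in knockouts and 10.8 ± 0.833 CPM in controls (SD, n = 4 each). Since the deleted exons are not given, this level does not check the deletion. A fat library, that of control mouse 138, differed from the rest: its 5 urothelial markers summed to 1058 CPM and its 5 smooth muscle markers to 9941 CPM, against at most 20.4 and 581 CPM in the other fat libraries. Its 6 adipocyte markers summed to 2685 CPM, against 12843 to 15724 CPM in the others, and fat results that change without this mouse are given without it too. The labelled tissues showed their defining markers: muscle fibre genes summed to between 150734 and 201442 CPM in muscle and between 313 and 3589 CPM in fat.

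Because MyD88 leads to NF-kB, the 250 bases before the RefSeq start of each member were searched for the NF-kB consensus on both strands. RefSeq (GRCm38.p6) gave a promoter for 38 of the 54 member symbols, and 10 of these 38 (26.3%) held a match, against 8.23% of 27025 symbols. The 10 were Ccl1, Ccl9, Ccl20, Ccr1, Ccr3, Ccr6, Cxcl1, Cxcl2, Cxcl3 and Cxcl10. The stretches just before the annotated start are shown for the 3 neighbouring neutrophil chemokines Cxcl1, Cxcl2 and Cxcl3, for the interferon-induced Cxcl10 and for Ccl9, with the matches in capitals.
Cxcl1: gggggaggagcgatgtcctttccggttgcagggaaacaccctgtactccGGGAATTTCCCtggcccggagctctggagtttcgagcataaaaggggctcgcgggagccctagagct
Cxcl2: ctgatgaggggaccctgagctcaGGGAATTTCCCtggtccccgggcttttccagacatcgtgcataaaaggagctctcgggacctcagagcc
Cxcl3: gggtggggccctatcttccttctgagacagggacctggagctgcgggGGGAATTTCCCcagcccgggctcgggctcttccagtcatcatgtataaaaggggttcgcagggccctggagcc
Cxcl10: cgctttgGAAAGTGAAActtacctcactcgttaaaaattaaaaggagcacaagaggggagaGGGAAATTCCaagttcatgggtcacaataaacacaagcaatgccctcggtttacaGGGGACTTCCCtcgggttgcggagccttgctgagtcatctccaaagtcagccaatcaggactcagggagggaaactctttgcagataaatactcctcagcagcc
Ccl9: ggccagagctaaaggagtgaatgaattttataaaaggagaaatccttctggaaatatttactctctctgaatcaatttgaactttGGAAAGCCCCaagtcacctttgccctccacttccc
They lie at chr5:90891125-90891240 on the plus strand, chr5:90903779-90903870 on the plus strand, chr5:90785981-90786100 on the plus strand, chr5:92348890-92349109 on the minus strand and chr11:83578637-83578756 on the minus strand. Each is written 5′ to 3′ along its gene. Cxcl1, Cxcl2 and Cxcl3 hold the same run of capitals, in which overlapping matches of both strands are joined. Its far edge lies 71 bases before the RefSeq start in Cxcl1, 97 in Cxcl2 and 73 in Cxcl3. Bases that GENCODE counts as transcribed were left out, so the stretches shown for Cxcl1 and Cxcl2 end before the RefSeq start. In Cxcl10 the capitals mark, from 5′ to 3′, a match to the interferon response core (GAAA, any 2 bases, GAAA, searched on both strands), which 7.89% of member symbols and 3.46% of all symbols held, and a pair of NF-kB stretches. A match describes these letters only. Of the 10 genes with a match, Ccl9 and Cxcl1 were expressed above the count filter in both tissues, Cxcl10, Ccr1 and Ccr3 in fat alone, and the other 5 in neither.

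Fat held the broader set. In fat 25 members, 18 ligands and 7 receptors, passed the filter on low counts (filterByExpr of edgeR), and in muscle 13, 10 ligands and 3 receptors, all of which also passed in fat. Of all 55536 genes, 16323 passed in fat and 14183 in muscle. The TMM factors were 1.34 to 1.89 in fat and 0.615 to 0.681 in muscle, so a gene at the same CPM gave fewer raw counts in muscle. The 12 members that passed in fat alone were the CCR2 ligands Ccl2, Ccl7 and Ccl12, which recruit monocytes, Ccl5, Ccl8, the interferon-induced Cxcl9 and Cxcl10, the B cell attractant Cxcl13, and the receptors Ccr1, Ccr3, Cxcr3 and Cxcr6. Of the 34 that passed in neither tissue, 21 had counts and 13 had none. The 6 without a count on the chromosomes were Ccl1, Ccl20, Ccl21a, Ccl21b, Ccl27b and Cxcl3, so Cxcl3, whose promoter carries the same match as those of its neighbours, was not detected at this depth. Sequence shared with other genes limits some of these counts. Of their 51-base stretches, 100% in Ccl21b, 98.1% in Ccl27b, 71.2% in Ccl21a, 51.7% in Ccl19 and 44.5% in Ccl27a also occur in other genes, and the sources used here do not say how such reads were counted. Exons of the opposite strand cover 18.3% of the exon bases of Cxcl16, 5.91% of Cxcl10 and 2.74% of Ccl25, and although the library kit is stranded, whether the counting used strand is not given either.

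Per length, the eotaxin Ccl11 was the most abundant member in both tissues. It averaged 35.9 ± 10.5 CPM per kb in fat and 26.2 ± 3.19 CPM per kb in muscle (SD, n = 8 each). In fat it was followed by the macrophage product Ccl6 at 24.9 ± 10.2, by Cxcl12, the ligand of CXCR4, at 10.7 ± 1.77, and by the CCR1 ligand Ccl9 at 9.69 ± 3.69 CPM per kb. The ranges of Ccl11 and Ccl6 over the fat libraries overlapped, and so did those of Cxcl12 and Ccl9. In muscle the order was Ccl11, then Cxcl14, a ligand made in many tissues, at 12.4 ± 1.81, Cxcl12 at 8.37 ± 1.54 and Ccl6 at 3.61 ± 0.895 CPM per kb. There Ccl11 was above Cxcl14 in all 8 libraries by range, 21.7 to 29.9 against 9.87 to 16 CPM per kb. Ccl11, Ccl6 and Cxcl12 together made up 60.9 ± 9.50% of the summed ligand level in fat and 64.2 ± 2.85% in muscle.

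Among receptors, Ccr2, through which monocytes enter tissues, and Cxcr4 led. Ccr2 averaged 4.13 ± 1.11 CPM per kb in fat and 1.01 ± 0.274 in muscle, and Cxcr4 2.13 ± 0.856 in fat and 1.51 ± 0.311 in muscle. Receptor levels were low beside those of the ligands: all 17 receptors summed to 10.2 ± 2.63 CPM per kb in fat and 2.97 ± 0.363 in muscle, and all 42 ligands to 117 ± 21.7 in fat and 59.4 ± 5.58 in muscle. Receptors of neutrophils stayed near the limit of detection, with 14 counts of Cxcr2 over the 8 fat libraries and 14 over the 8 muscle libraries, and 1 and 0 of Cxcr1.

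**Figure D1:**
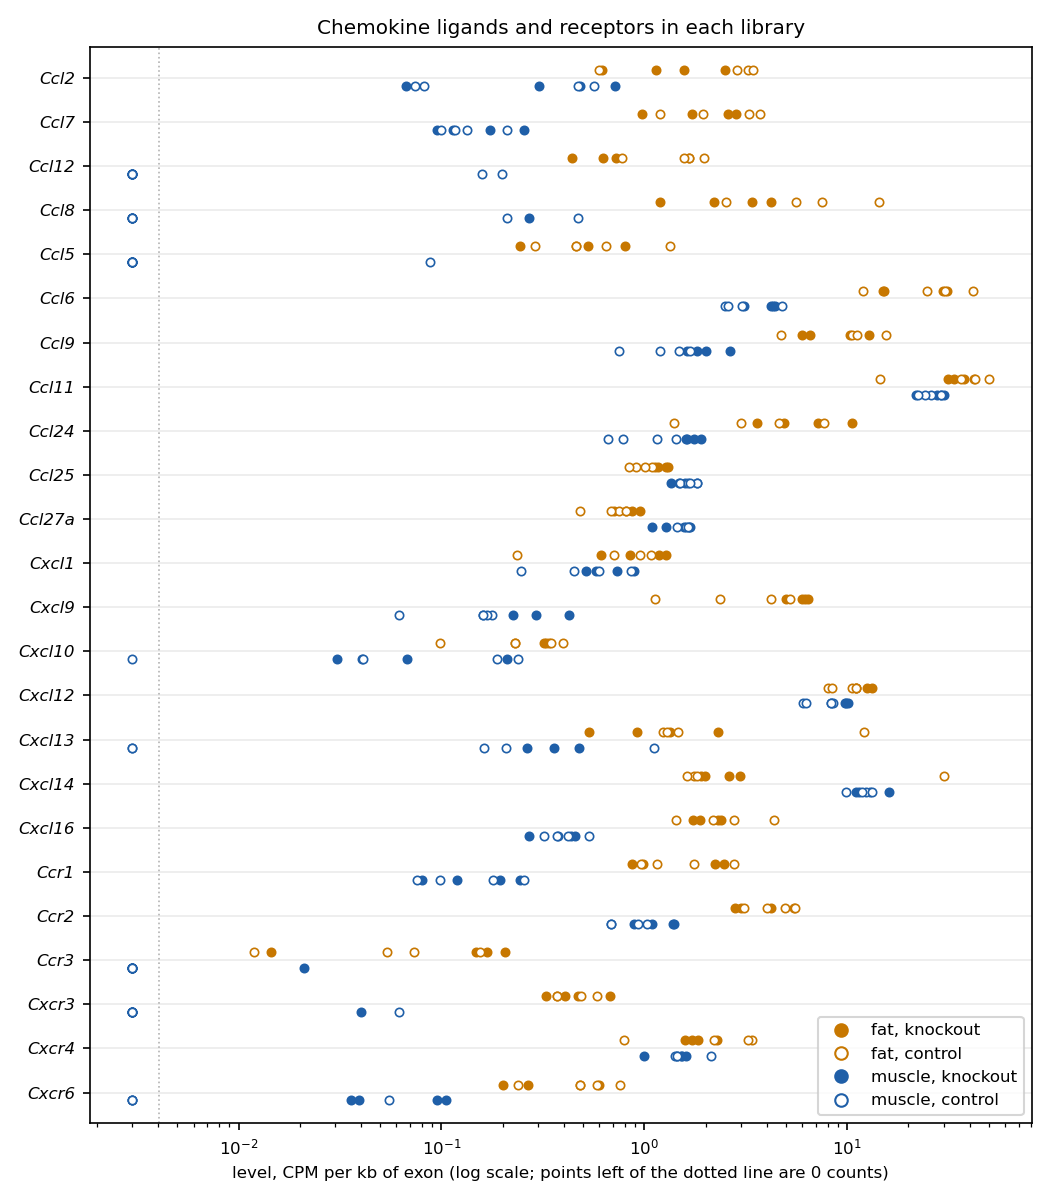
Level of members that passed the count filter in fat, in CPM per kb of exon on a log axis, with fat above muscle for each gene, filled points for knockout mice and open points for controls (1 point per library). Points left of the dotted line are libraries with 0 counts, which occur for Ccl5, Ccl8, Ccl12, Cxcl10, Cxcl13, Ccr3, Cxcr3 and Cxcr6, all in muscle, and Ccl11 lies furthest right by its mean in both tissues.

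Most members tested were higher in fat than in muscle. Over all 16 libraries 25 members were tested, of which 20 rose in fat and 3 fell (edgeR quasi-likelihood test with Benjamini-Hochberg adjustment, threshold 0.05). Of the 25, 13 passed the filter in both tissues and 12 in fat alone. The 12 entered through their fat counts, so the filter favoured a higher level in fat, which the counts and the median given here carry. Of the 17084 genes in the test, 79.6% were called, 44% as higher and 35.7% as lower. The median log2 fold change, fat over muscle, was 2.59 over the members and 0.16 over all genes. In 13 members every fat library was above every muscle library and in 2 every fat library was below, against 26.7% and 25.4% of all genes. In bulk tissue, fewer cells of a type and less RNA per cell cannot be told apart. Of 10 macrophage markers, 9 were called higher in fat and 1 lower, beside 44% and 35.7% of all genes. None was without counts, and the list summed to 425 to 821 CPM in fat and 120 to 202 CPM in muscle. The part of these markers in the difference was not tested.

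The largest tissue differences were in genes nearly silent in muscle. Ccl5, a chemokine of T cells, had 109 counts over the 8 fat libraries and 1 over the 8 muscle libraries, a ratio of 56.8 with an exact 95% counting interval of 9.98 to 2263. Ccl12 had 121 counts over the 8 fat libraries and 2 over the 8 muscle libraries, a ratio of 31.5 (8.54 to 263). Cxcr3, the receptor of activated T cells for Cxcl9 and Cxcl10, had 151 counts over the 8 fat libraries and 2 over the 8 muscle libraries, a ratio of 39.3 (10.7 to 328). The intervals are wide because they rest on 1 or 2 muscle counts, and they cover counting error only. Ccr3, the eotaxin receptor of eosinophils, had 63 counts over the 8 fat libraries and 1 over the 8 muscle libraries, a ratio of 32.8 (5.68 to 1317), while its ligand Ccl11 was abundant in both tissues. Ccl8, a CCR8 ligand in the mouse, had 6 counts over the muscle libraries, and its lowest, median and highest fat levels were 0.611, 1.93 and 7.32 CPM. Cxcl9 had a lowest, median and highest level of 3.4, 15.4 and 19.4 CPM in fat and 0.186, 0.521 and 1.28 CPM in muscle, a log2 fold change of 4.46 ± 0.32 (SE) with an adjusted p of 4e-09. Fat was above muscle in all 8 mice for each of Ccl5, Ccl12, Cxcr3, Ccr3, Ccl8 and Cxcl9. These genes passed the filter in fat alone, so the filter favoured this direction.

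The macrophage-associated ligands and receptors followed at lower folds. Ccl6 had a lowest, median and highest level of 21.5, 48.8 and 74.7 CPM in fat and 4.48, 6.54 and 8.57 CPM in muscle, and Ccl9 14.4, 31.8 and 47.4 CPM in fat and 2.28, 5.04 and 8.06 CPM in muscle. Neither gene's ranges overlapped, and the log2 fold changes were 2.79 ± 0.26 (SE) and 2.59 ± 0.25 (SE). Ccr2 stood at 19, 27.7 and 37.4 CPM in fat and 4.65, 6.64 and 9.46 CPM in muscle. It was higher in every fat library, with a log2 fold change of 2.05 ± 0.17 (SE) and an edgeR adjusted p of 2.5e-08. Ccl24, the other eotaxin, overlapped between tissues at 1.8, 6.12 and 13.7 CPM in fat and 0.856, 1.96 and 2.47 CPM in muscle, and was higher in fat in 7 of 8 mice (log2 fold change 1.98 ± 0.32 (SE), adjusted p = 3.8e-05).

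The other ligands and receptors that passed the filter in fat alone, and Cxcl16, were higher in fat as well. Except for Cxcl16, they entered the tissue test through their fat counts, so the filter favoured this direction. The CCR2 ligand Ccl7 had a lowest, median and highest level of 0.78, 1.81 and 2.96 CPM in fat and 0.0759, 0.1 and 0.204 CPM in muscle, with no overlap and a log2 fold change of 3.82 ± 0.37 (SE). Ccl2, the main CCR2 ligand, was at 0.681, 2.31 and 3.89 CPM in fat and 0.0759, 0.44 and 0.815 CPM in muscle, ranges that overlapped, with a log2 fold change of 2.46 ± 0.49 (SE) and an adjusted p of 0.00029. Cxcl16, a membrane-bound ligand, was at 4.33, 6.78 and 13.1 CPM in fat and 0.815, 1.2 and 1.6 CPM in muscle. Its receptor Cxcr6, found on T cells, was at 0.39, 0.931 and 1.46 CPM in fat and 0, 0.0725 and 0.204 CPM in muscle. Neither member of this pair overlapped between tissues, with log2 fold changes of 2.58 ± 0.22 (SE) for Cxcl16 and 3.76 ± 0.50 (SE) for Cxcr6. Ccr1, the receptor of Ccl6 and Ccl9, was at 2.46, 4.12 and 7.82 CPM in fat and 0.214, 0.424 and 0.721 CPM in muscle, again without overlap (log2 fold change 3.37 ± 0.36 (SE)). Cxcl13 and Cxcl10 overlapped between tissues, though fat exceeded muscle in all 8 mice, with log2 fold changes of 2.87 ± 0.73 (SE) and 1.49 ± 0.47 (SE, adjusted p = 0.00206 and 0.00877, edgeR).

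Members below the filter in both tissues are given by receptor. The CCR4 ligands Ccl22 and Ccl17, made by dendritic cells, had 73 and 24 counts over the 8 fat libraries and 3 and 6 over the 8 muscle libraries, and Ccr4 had 20 in fat and 2 in muscle. Ccr7, which takes dendritic cells and naive T cells to lymph nodes, had 51 in fat and 7 in muscle, while its ligand Ccl19 had 3 in fat and 2 in muscle. Cxcr5, the receptor of Cxcl13 on B cells, had 36 in fat and 2 in muscle. Ccl28, a mucosal ligand of CCR10, had 59 counts in fat and 41 in muscle, and Cxcl2 49 in fat and 16 in muscle. Ccr9, the receptor of Ccl25, had 20 counts in fat and 2 in muscle, and Ccr10, the receptor of Ccl27a, had 19 in fat and 0 in muscle. The macrophage ligands Ccl3 and Ccl4 had 18 and 10 in fat and 2 and 0 in muscle. Ccr6, Ccr8, Ccr1l1, Ccl26, Cxcl5, Cxcl15 and Cxcl17 ranged from 1 to 13 counts over the fat libraries and from 0 to 4 over the muscle libraries. These members were not part of the main tests, and entered the alternative fits with no filter on low counts.

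Among the members tested, Cxcl12, Ccl11, Cxcr4 and Cxcl1 differed least between the tissues. Cxcl12 was at 65.8, 90.2 and 108 CPM in fat and 49.4, 68.5 and 82 CPM in muscle, overlapping ranges with a log2 fold change of 0.37 ± 0.09 (SE) and an adjusted p of 0.00224. Ccl11, at 15.7, 39.8 and 54.1 CPM in fat and 23.5, 29 and 32.4 CPM in muscle, had a log2 fold change of 0.46 ± 0.18 (SE), and its adjusted p of 0.032 was lost with the mouse as a block (0.0976), with limma voom (0.0867) and without mouse 131, 137, 11, 958, 960 or 29. Without the fat library of mouse 138, its lowest, the log2 fold change was 0.59 and the adjusted p 8.6e-06. Cxcl1 and Cxcr4 did not pass, with log2 fold changes of 0.51 ± 0.30 (SE) and 0.49 ± 0.24 (SE). Without that library both passed, at 0.66 for Cxcl1 and 0.64 for Cxcr4 (adjusted p 0.0137 and 0.00065).

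Only 3 members tested were lower in fat: Cxcl14, Ccl25 and Ccl27a. Cxcl14 had a lowest, median and highest level of 2.96, 3.54 and 54.6 CPM in fat and 18, 22.2 and 29.1 CPM in muscle. The single fat library above the muscle range was that of mouse 138. Its log2 fold change was -1.42 ± 0.53 (SE) with all libraries (adjusted p = 0.0228) and -2.60 without this one (adjusted p = 2.1e-13). With all libraries the call was lost without mouse 137, 139, 958 or 29, with no filter on low counts and with scaling by total counts (log2 fold change -0.11). Ccl25, which draws thymocytes and gut T cells through CCR9, was at 6.25, 8.23 and 9.74 CPM in fat and 10.01, 12 and 13.5 CPM in muscle, and Ccl27a, a ligand of CCR10 on skin-homing T cells, at 1.15, 1.86 and 2.26 CPM in fat and 2.58, 3.77 and 4.01 CPM in muscle. Both were below muscle in every fat library. Their log2 fold changes were -0.57 ± 0.08 (SE) and -0.98 ± 0.14 (SE), and the direction of both turned when libraries were scaled by total counts, to 0.63 and 0.23. That scaling moved the median of all genes from 0.16 to 1.36, so relative to the median both genes stayed lower in fat.

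**Figure D2:**
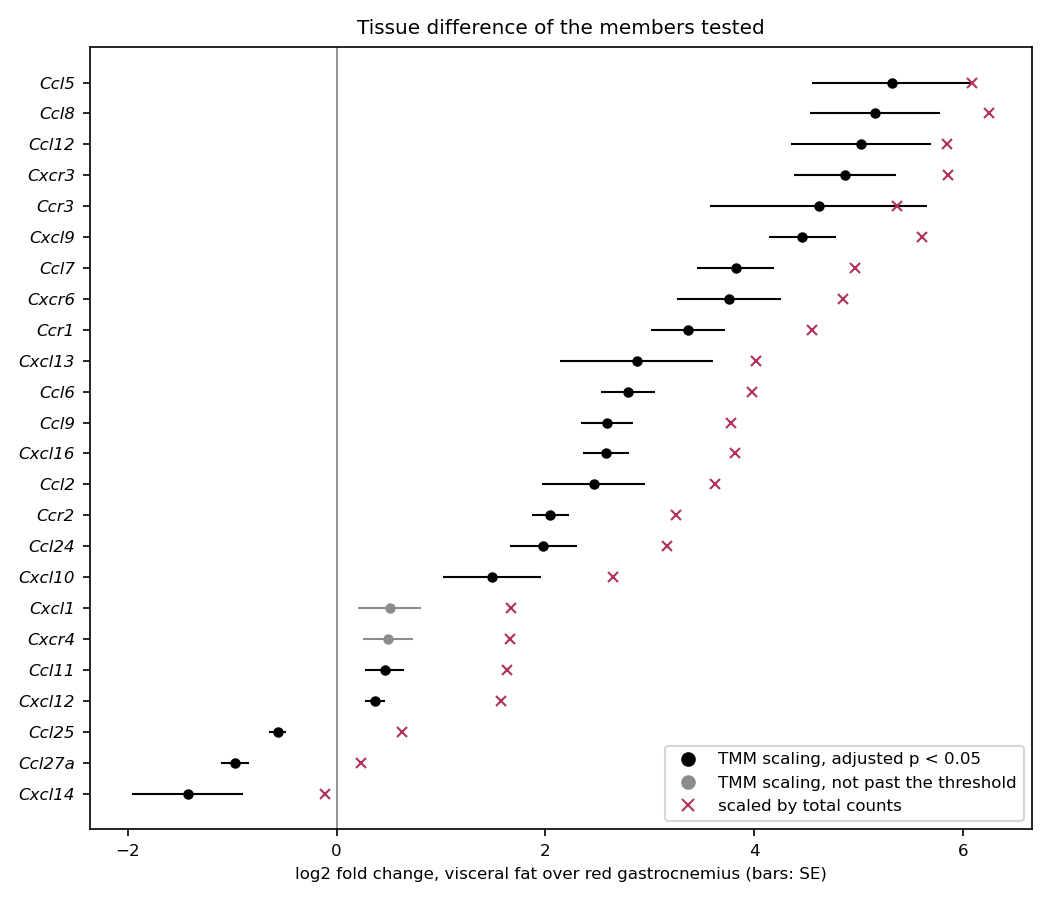
Log2 fold change, fat over muscle, with its SE for members tested over 16 libraries, in black where the adjusted p is under 0.05. Crosses show the same fold when libraries are scaled by total counts, which shifts every member shown to the right and turns Ccl25 and Ccl27a to the positive side.

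In muscle, the tissue with the deletion, no member passed the test for genotype. Of the 13 members tested 0 were called by edgeR (lowest adjusted p = 0.907), by DESeq2 or by limma voom, against 2 of 14183 genes (0.0141%) by edgeR and 0.0705% by DESeq2. The log2 fold change, knockout over control, was positive in 9 of the 13 and in 50.8% of all genes, with a median of 0.29 and a median of 0.00 over all genes. Unadjusted p was under 0.05 in 4 members, Cxcl12, Ccl9, Ccl24 and Ccr2, and in 5.04% of all genes. All 4 were higher in knockouts, and the groups did not overlap in 1 of the 13, Ccl24, against 3.12% of all genes (1.85% with knockouts above).

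Cxcl12 (ENSMUSG00000061353, chr6:117168535-117181367, plus strand) was at 67.6, 82, 80.6 and 79.3 CPM in knockout muscle, against 49.4, 69.3, 67.8 and 51.2 CPM in control muscle. In 3 of 4 knockouts it was above every control, and mouse 139 lay within the control range. Its log2 fold change was 0.37 ± 0.12 (SE), with an unadjusted p of 0.00879 and an edgeR adjusted p of 0.907. It passed under a single alternative, with no filter on low counts (adjusted p = 0.0168). Cxcr4, its receptor, was at 2.75, 1.8, 2.88 and 2.79 CPM in knockout muscle, against 3.85, 2.62, 2.56 and 2.6 CPM in control muscle. These values overlapped, with a log2 fold change of -0.19 ± 0.22 (SE) and an unadjusted p of 0.406.

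The CCR1 ligands came next. Ccl9 (ENSMUSG00000019122, chr11:83572919-83578636, minus strand), whose promoter stretch is shown above, was at 8.06, 6.15, 5.54 and 4.96 CPM in knockout muscle, against 4.49, 2.28, 5.13 and 3.63 CPM in control muscle. Of the knockouts, 3 exceeded every control, and the remaining one lay just below mouse 138. The log2 fold change was 0.65 ± 0.22 (SE, unadjusted p = 0.0102, edgeR adjusted p = 0.907). Ccl6, its neighbour on the chromosome at chr11:83587882-83593087, minus strand, was at 7.69, 7.88, 7.51 and 5.57 CPM in knockout muscle, against 5.46, 4.48, 8.57 and 4.65 CPM in control muscle. Control mouse 138 held the highest value and knockout mouse 29 the lowest of its group. Ccl6 had a log2 fold change of 0.29 ± 0.20 (SE) with all mice (unadjusted p = 0.172) and of 0.55 (unadjusted p = 0.00697) without mouse 138. The latter was the highest of 15 alternative fits, which ranged from 0.18 to 0.55 with 0 called.

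The eotaxins differed from each other. Ccl24 (ENSMUSG00000004814, chr5:135569937-135573049, minus strand) was at 2.47, 2.07, 2.28 and 2.11 CPM in knockout muscle, against 0.856, 1.02, 1.84 and 1.49 CPM in control muscle. All 4 knockouts were above all 4 controls, on 118 counts in knockouts and 59 in controls. The log2 fold change was 0.74 ± 0.25 (SE), the unadjusted p 0.011 and the edgeR adjusted p 0.907. Ccl11 was at 32.4, 23.5, 29.96 and 31.2 CPM in knockout muscle, against 28, 26.2, 31.5 and 24.1 CPM in control muscle, overlapping groups with a log2 fold change of 0.08 ± 0.11 (SE). Ccr2 (ENSMUSG00000049103, chr9:124101950-124113557, plus strand) was at 9.34, 9.46, 5.99 and 7.4 CPM in knockout muscle, against 6.31, 4.65, 6.97 and 4.65 CPM in control muscle. Of the knockouts 3 lay above every control, with a log2 fold change of 0.50 ± 0.18 (SE, unadjusted p = 0.0145, edgeR adjusted p = 0.907).

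The remaining muscle members differed less. Cxcl14 was at 23.6, 20.9, 20.3 and 29.1 CPM in knockout muscle, against 22.7, 24.2, 18 and 21.7 CPM in control muscle, Ccl25 at 11, 11.8, 10.01 and 13.5 CPM in knockout muscle, against 11.1, 12.3, 13.5 and 12.5 CPM in control muscle, and Ccl27a at 3.02, 3.73, 2.58 and 4.01 CPM in knockout muscle, against 3.96, 3.81, 3.45 and 3.9 CPM in control muscle. In each of these 3 ligands the groups overlapped, with log2 fold changes of 0.11 ± 0.13 (SE), -0.10 ± 0.12 (SE) and -0.17 ± 0.18 (SE). Cxcl1, a neutrophil attractant shown above with its NF-kB match, had 15, 14, 22 and 16 counts in knockouts and 15, 10, 14 and 5 in controls, with a log2 fold change of 0.34 ± 0.34 (SE), and Cxcl16 a log2 fold change of -0.10 ± 0.28 (SE). Macrophage markers had folds in the direction of Ccl9, Ccl24 and Ccr2: 9 of 10 were positive (median 0.40, 0 called), and the list summed to 171 to 202 CPM in knockout muscle and 120 to 174 CPM in control muscle. Fibroblast markers were positive in 7 of 7 (median 0.27, 885 to 1141 CPM in knockouts and 724 to 1007 CPM in controls) and mast cell markers in 5 of 5 tested (median 0.90, 13.6 to 18.4 CPM in knockouts and 4.06 to 14.3 CPM in controls). Of 7 monocyte and neutrophil markers only 1 passed the filter in muscle, with a positive fold. The list summed to 2.56 to 3.32 CPM in knockout muscle and 0.846 to 2.24 CPM in control muscle. Positive folds were also seen in 6 of 6 endothelial, 4 of 5 lymphatic endothelial and 4 of 6 adipocyte markers. They were seen in 2 of 7 muscle fibre, 0 of 4 tested smooth muscle, 0 of 5 erythroid and 0 of 1 tested dendritic cell markers. Over all genes 50.8% were positive. The part of these cell types in the chemokine values was not tested.

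**Figure D3:**
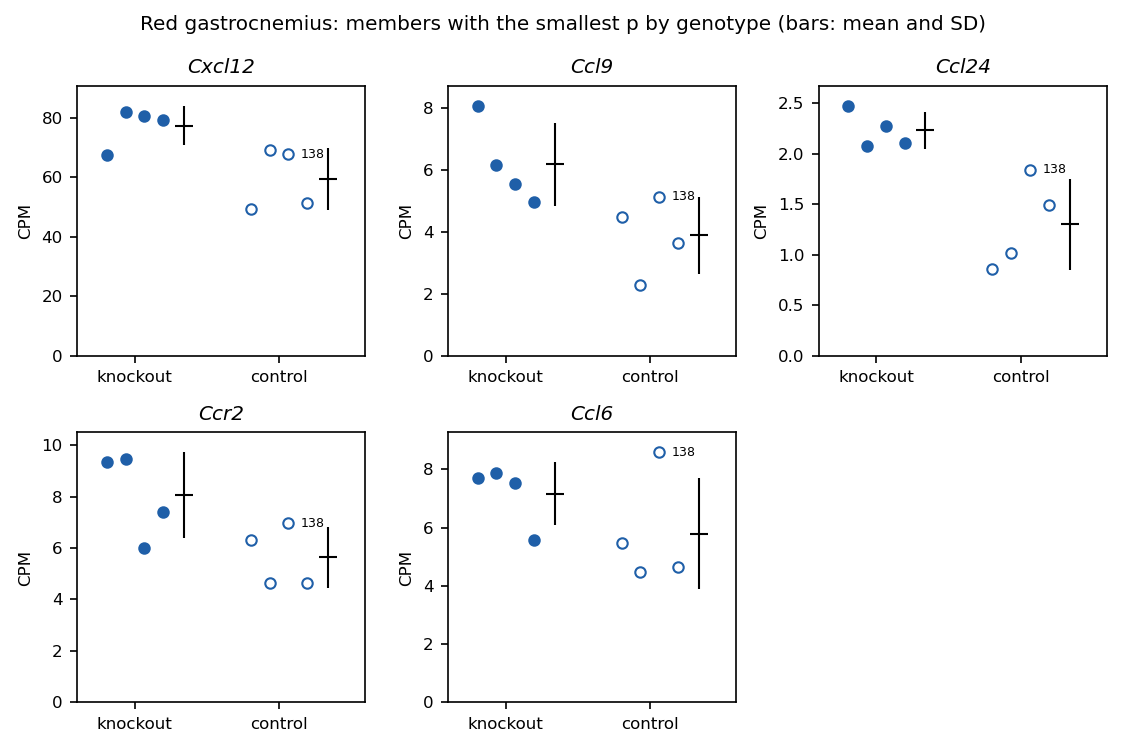
CPM per muscle library of Cxcl12, Ccl9, Ccl24, Ccr2 and Ccl6, knockouts filled and controls open, with mean and SD beside each group of 4. Ccl24 alone has no overlap between the groups, and control mouse 138 is the highest or next to highest control in each panel.

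In fat, no member passed either. Of 25 members tested 0 were called by edgeR (lowest adjusted p = 0.588), by DESeq2 or by limma voom, against 1 of 16323 genes (0.00613%) by edgeR and 0.441% by DESeq2. Log2 fold changes were positive in 11 of 25 and in 47.9% of all genes, with a median log2 fold change of -0.18 and a median of -0.01 over all genes. Unadjusted p was under 0.05 in 3 members, Ccl25, Ccl8 and Cxcl12, and in 7.99% of all genes. The groups did not overlap in 1 member, Ccl25, against 6.35% of all genes (3.44% with knockouts above). Without mouse 138, 0 members were called as well (0.0362% of 16579 genes), and 7 members and 16.6% of all genes had an unadjusted p under 0.05. These 7 were Ccl2, Ccl8 and Cxcr4, lower in knockouts, and Ccl25, Cxcl9, Cxcl12 and Cxcl14, higher in knockouts.

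Ccl25 (ENSMUSG00000023235, chr8:4325210-4360020, plus strand) was at 9.5, 8.73, 9.74 and 8.36 CPM in knockout fat, against 8.1, 6.77, 6.25 and 7.51 CPM in control fat. Every knockout was above every control, by a narrow gap, with a log2 fold change of 0.34 ± 0.11 (SE, unadjusted p = 0.0162, edgeR adjusted p = 0.588). Cxcl12, which had the smallest p in muscle, was at 90.1, 90.6, 103 and 108 CPM in knockout fat, against 65.8, 69, 86.2 and 90.4 CPM in control fat. Here 3 knockouts lay above every control and mouse 139 just below mouse 11, and the log2 fold change was 0.32 ± 0.14 (SE, unadjusted p = 0.0459). Its receptor Cxcr4 was at 2.87, 4.13, 3.31 and 3.11 CPM in knockout fat, against 6.11, 5.85, 1.44 and 3.98 CPM in control fat. With mouse 138, the lowest, the log2 fold change was -0.37 ± 0.39 (SE, unadjusted p = 0.373), and without it -0.66 (unadjusted p = 0.00687, edgeR adjusted p = 0.184).

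Ccl8 and the ligands of CCR2 had negative folds in knockout fat, none past the threshold. Ccl8 (ENSMUSG00000009185, chr11:82115185-82116799, plus strand) was at 0.611, 1.73, 1.13 and 2.14 CPM in knockout fat, against 7.32, 1.29, 2.84 and 3.84 CPM in control fat. The groups overlapped through control mouse 137, and control mouse 131 was the highest. The log2 fold change was -1.44 ± 0.56 (SE, unadjusted p = 0.0312, edgeR adjusted p = 0.618), and -0.93 without mouse 131 (unadjusted p = 0.105). The CCR2 ligands Ccl2, Ccl7 and Ccl12 all had a negative fold, with a median of -0.78 and 0 called. Ccl2 was at 1.79, 2.83, 0.702 and 1.29 CPM in knockout fat, against 3.7, 3.27, 0.681 and 3.89 CPM in control fat. Mouse 138 was the lowest of all 8 mice, and the log2 fold change was -0.81 ± 0.57 (SE) with it and -1.14 without it (unadjusted p = 0.194 and 0.0149). Ccl7, the smallest of these folds, was at 2.07, 2.26, 0.78 and 1.37 CPM in knockout fat, against 1.56, 2.62, 0.961 and 2.96 CPM in control fat, overlapping values with a log2 fold change of -0.33 ± 0.43 (SE, unadjusted p = 0.472), and -0.56 without mouse 138 (unadjusted p = 0.16). It was -0.10 without mouse 11 and -0.10 without mouse 960. Ccl12 was at 0.235, 0.336, 0.39 and 0.888 CPM in knockout fat, against 0.895, 0.414, 0.841 and 1.06 CPM in control fat, with 3 knockouts below every control and a log2 fold change of -0.78 ± 0.45 (SE, unadjusted p = 0.122). Their receptor Ccr2 was at 20.1, 37.1, 19 and 28.4 CPM in knockout fat, against 27.1, 33.2, 20.8 and 37.4 CPM in control fat, overlapping values with a log2 fold change of -0.18 ± 0.25 (SE). Ccl5 overlapped too, at 0.235, 0.768, 0.507 and 0.444 CPM in knockout fat, against 1.28, 0.276, 0.441 and 0.618 CPM in control fat.

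Cxcl9, induced by interferon gamma, was at 18.6, 19.4, 18 and 15 CPM in knockout fat, against 15.7, 12.7, 3.4 and 7.11 CPM in control fat. Of the knockouts 3 were above every control, and the controls spread from mouse 131 down to mouse 138. The log2 fold change was 0.87 ± 0.40 (SE, unadjusted p = 0.0603), and 0.58 without mouse 138 (unadjusted p = 0.0424, edgeR adjusted p = 0.285). Its receptor Cxcr3 was at 0.706, 0.816, 1.17 and 0.565 CPM in knockout fat, against 1.01, 0.644, 0.641 and 0.839 CPM in control fat, overlapping groups with a log2 fold change of 0.05 ± 0.28 (SE). Cxcl10, also induced by interferon, had a log2 fold change of 0.18 ± 0.39 (SE).

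A single mouse set the fold of Cxcl13 and of Cxcl14. Cxcl13 was at 0.611, 2.64, 1.05 and 1.53 CPM in knockout fat, against 13.9, 1.43, 1.48 and 1.68 CPM in control fat. Mouse 131 alone stood high, and the log2 fold change of -1.66 ± 0.87 (SE) became -0.08 without it. Cxcl14 was at 3.62, 3.46, 5.42 and 4.76 CPM in knockout fat, against 3.19, 3.31, 54.6 and 2.96 CPM in control fat. Mouse 138 alone stood high, and the log2 fold change was -1.92 ± 1.02 (SE) with it and 0.46 without it (unadjusted p = 0.0954 and 0.0362). The urothelial and smooth muscle markers given above were high in the same library, and their part in this value was not tested.

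None of the abundant fat ligands Ccl11, Ccl6 and Ccl9 passed the threshold by genotype, and their knockout and control values overlapped. Ccl11 was at 33.9, 45.3, 36.2 and 40.5 CPM in knockout fat, against 46.2, 54.1, 15.7 and 39.1 CPM in control fat, with a log2 fold change of 0.01 ± 0.32 (SE) with all mice and -0.25 without mouse 138. Ccl6 was at 27.3, 53.4, 27.1 and 55.8 CPM in knockout fat, against 44.3, 54.2, 21.5 and 74.7 CPM in control fat, and Ccl9 at 18.3, 38.8, 19.9 and 31.4 CPM in knockout fat, against 32.1, 33.9, 14.4 and 47.4 CPM in control fat. The log2 fold changes were -0.25 ± 0.40 (SE) for Ccl6 and -0.24 ± 0.37 (SE) for Ccl9. Without mouse 138 they were -0.49 and -0.48, negative like that of Ccl11, and without mouse 11 they were 0.02 and 0.01. Both genes ran high in the same mice, 958 and 29 among knockouts and 11 among controls, and low in mouse 138. Ccl24 was at 6.3, 13.7, 4.64 and 9.24 CPM in knockout fat, against 3.89, 5.94, 1.8 and 9.94 CPM in control fat, with the same high mice, 958 and 11, and a log2 fold change of 0.66 ± 0.52 (SE). That fold was 0.37 without mouse 138, 0.32 without mouse 958 and 1.12 without mouse 11. Ccl27a was at 2.07, 2.26, 1.68 and 1.94 CPM in knockout fat, against 1.79, 1.15, 1.92 and 1.63 CPM in control fat, and overlapped as well. Ccr3 rested on few counts, 1, 14, 14 and 12 in knockouts and 1, 11, 6 and 4 in controls, with a log2 fold change of 0.88 ± 0.75 (SE). Macrophage markers summed to 425 to 776 CPM in knockout fat and 431 to 821 CPM in control fat, with a negative fold in 10 of 10 (median -0.20, and -0.35 without mouse 138) and 0 called. Folds were positive in 7 of 7 muscle fibre, 6 of 6 endothelial, 5 of 5 tested mast cell and 5 of 6 adipocyte markers. They were positive in 3 of 4 tested T cell, 3 of 5 dendritic cell, 2 of 5 mesothelial and 2 of 7 fibroblast markers. Of tested B cell markers 1 of 3 was positive, of monocyte and neutrophil markers 0 of 4 and of urothelial markers 0 of 1. Lymphatic endothelial, smooth muscle and erythroid markers had 0 of 5 each, and no marker was called. Of all genes, 47.9% had a positive fold in fat. These counts changed most without mouse 138 for smooth muscle, adipocyte and endothelial markers, to 4 of 5, 1 of 6 and 3 of 6. Mice 958 and 29 had the highest macrophage sums among knockouts, at 776 and 703 CPM, and mouse 11 among controls, at 821 CPM. Control mouse 131 followed mouse 11 at 726 CPM. Its Ccl6, Ccl9 and Ccl24 were below those of mouse 137, whose macrophage sum was 612 CPM. Whether these sums bear on Ccl6, Ccl9 and Ccl24 was not tested.

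**Figure D4:**
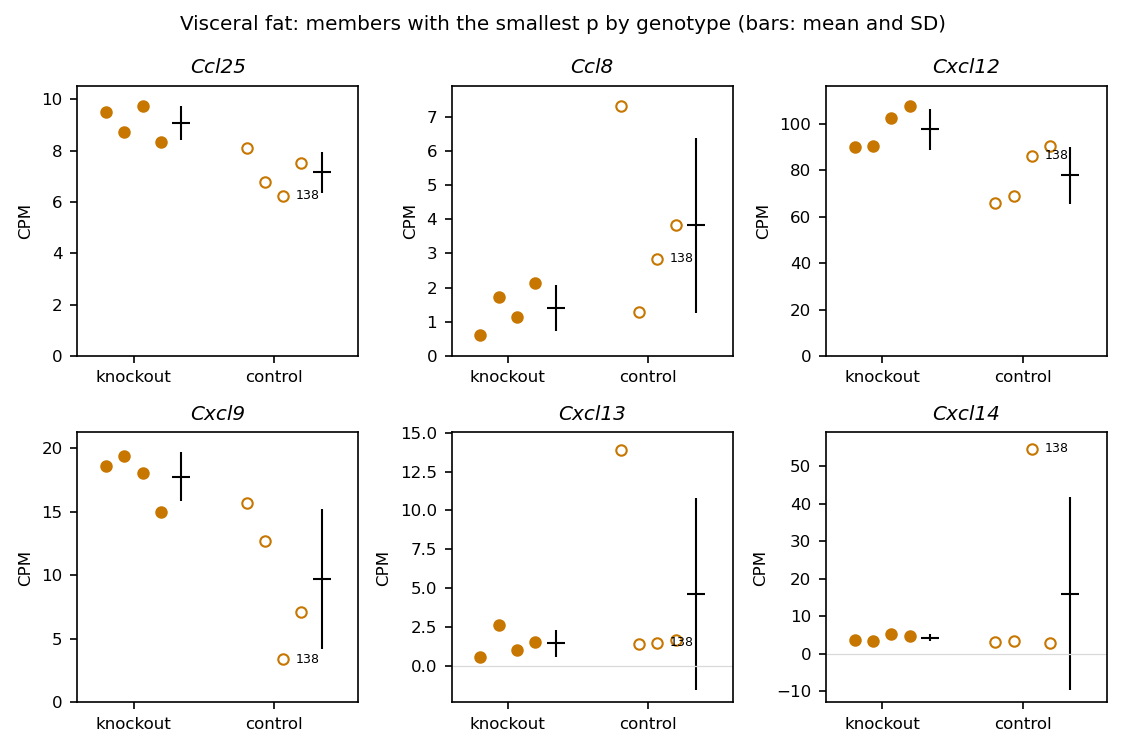
CPM per fat library of the 6 members with the smallest unadjusted p by genotype, knockouts filled and controls open, with mean and SD beside each group of 4. In Ccl25 every knockout lies above every control, while mouse 131 sets the control mean of Cxcl13 and mouse 138 that of Cxcl14.

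An interaction term fitted to all 16 libraries tested whether the genotype effect differed between the tissues. No member passed, as was so for all 17084 genes (0 called by edgeR, 0%), and DESeq2 called 11 genes (0.0644%) and 0 members. Unadjusted p was under 0.05 in 2 members and in 7.19% of all genes. These were Ccl25, whose effect in fat exceeded that in muscle by 0.43 ± 0.16 (SE) on the log2 scale (unadjusted p = 0.0164), and Cxcr6, the receptor of the membrane-bound Cxcl16, at -2.64 ± 1.19 (SE, unadjusted p = 0.0425). The value of Cxcr6 rests on 2, 1, 1 and 3 counts in knockout muscle and 1, 0, 0 and 0 in control muscle. For Ccl9 and Ccr2, positive in muscle and negative in fat, the difference was -0.90 ± 0.49 (SE, unadjusted p = 0.0863) and -0.69 ± 0.34 (SE, unadjusted p = 0.0603).

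**Figure D5:**
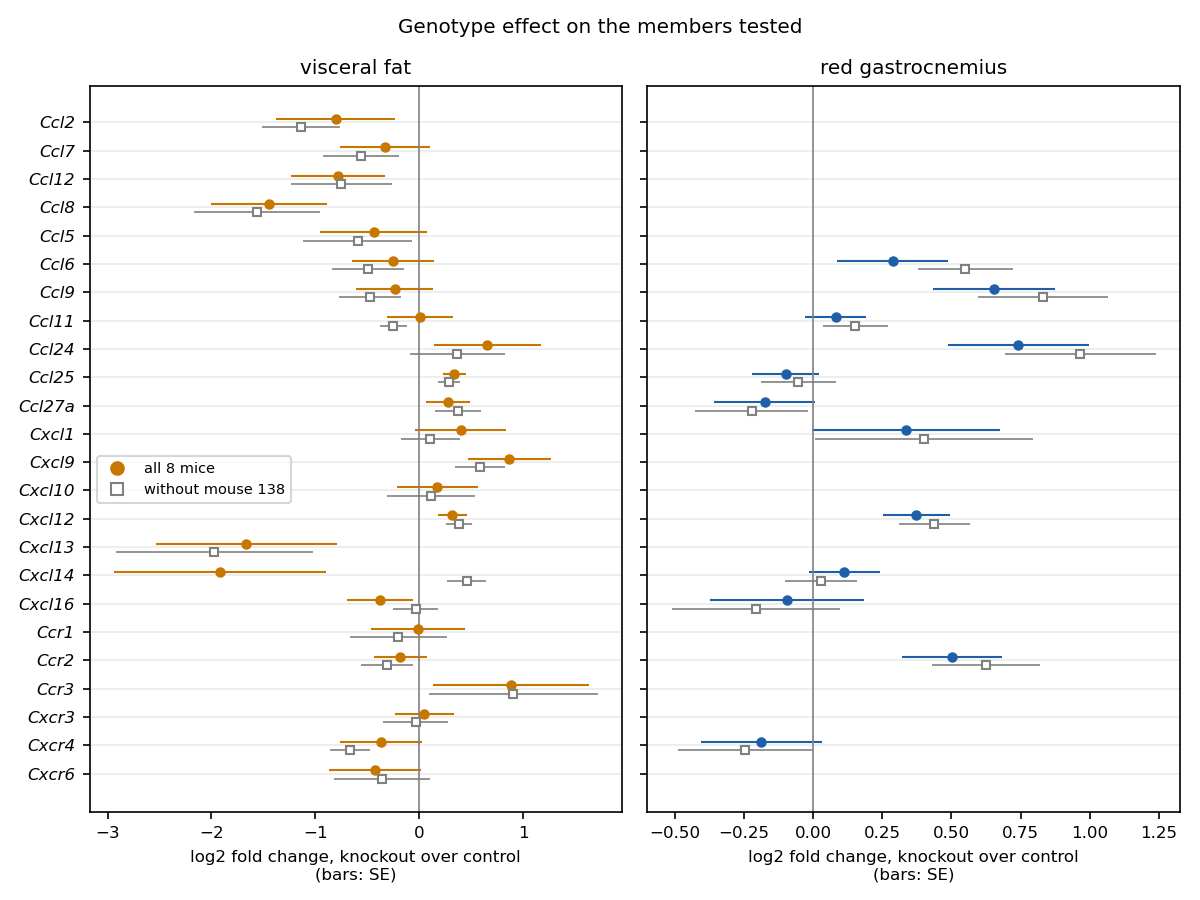
Log2 fold change, knockout over control, with its SE for members tested in fat (left) and in muscle (right), as circles for all 8 mice and squares without mouse 138. No value passed the adjusted threshold, and leaving out mouse 138 gives Cxcl14 in fat a log2 fold change of 0.46, against -1.92 with all mice.

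Genes around the family were taken from lists. Of 11 related genes outside the symbol rule (the ligands Cx3cl1, Xcl1, Pf4 and Ppbp, the receptors Cx3cr1 and Xcr1, the scavenging receptors Ackr1 to Ackr4 and Ccrl2), 10 were tested for tissue, of which 5 rose in fat and 2 fell, beside 44% higher and 35.7% lower over all genes, and none was called by genotype. The largest fall was in Ccrl2, a receptor that presents chemerin, which averaged 1.75 ± 0.393 CPM in knockout fat and 1.83 ± 0.424 CPM in control fat, against 8.98 ± 1.084 CPM in knockout muscle and 8.33 ± 1.53 CPM in control muscle (SD, n = 4 each, log2 fold change -2.26 ± 0.15 (SE), edgeR adjusted p = 1.01e-09). Pf4, a platelet and macrophage chemokine, was at 3.09 ± 0.456 CPM in knockout muscle and 1.80 ± 1.04 CPM in control muscle, with an unadjusted p of 0.0216 and an edgeR adjusted p of 0.940. Cx3cr1, the fractalkine receptor of monocytes, was at 0.733 ± 0.157 CPM in knockout fat and 1.74 ± 1.32 CPM in control fat (unadjusted p = 0.0567). Of 28 genes that carry the receptor signal inside the cell, 24 rose in fat and 3 fell, beside the same 44% and 35.7% of all genes, and none was called by genotype. Their folds by genotype were positive in 5 of 28 in fat (median -0.17) and in 14 of 24 tested in muscle (median 0.03). Over all genes, 47.9% were positive in fat and 50.8% in muscle. Of 28 genes of the MyD88 and NF-kB route, 25 were tested for tissue, of which 17 rose in fat and 4 fell, beside 44% and 35.7%. None was called by genotype, with positive folds in 9 of 25 in fat and 11 of 21 in muscle, beside the same 47.9% and 50.8%.

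Receptor genes sit close to the deleted gene. Of the 17 receptors 9 lie within 5 Mb of Myd88 on chromosome 9, with Ccr8 at 0.75 Mb and Cxcr6, Ccr1, Ccr3 and Ccr2 at 4.47, 4.62, 4.68 and 4.76 Mb. Of these, Ccr2 had a positive fold by genotype in muscle, and in fat Ccr3 was positive and Ccr1, Ccr2 and Cxcr6 were negative, none past the threshold. Further members cluster on chromosome 11, with 14 genes, and on chromosome 5, with 10.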

How the data were processed

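The authors deposited raw counts per gene for 16 libraries of total RNA from 8 mice, depleted of ribosomal RNA and made with a stranded kit, per the labels' protocols. The submitters' processing notes name STAR 2.7.0f, featureCounts 1.6.3, DESeq2 1.22.2 and the build GRCm38, with no role or order. The sources used here do not state the strand setting, the treatment of reads that match several genes or the annotation release. Symbols, positions and exon lengths came from GENCODE M21, and all gene ids were used as deposited.

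Genes were kept per comparison with filterByExpr, scaled with TMM and tested with edgeR 4.0.16 (robust quasi-likelihood test, R 4.3.3), with Benjamini-Hochberg adjustment over all genes tested and a threshold of 0.05. Genotype was tested over the 8 libraries of each tissue, and tissue and the interaction over all 16. Folds are knockout over control and fat over muscle. CPM used TMM factors from all 16 libraries. Total counts ranged from 13242243 to 21747345, and counting intervals (95%, exact) cover counting error only. The procedure was tested on simulated data. Every pair of libraries within a group differed by more than sampling noise.

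The number in the labels was taken as the animal, so that the libraries of both tissues pair. Over 17084 genes, the deviations of the 2 tissues of a mouse from their group means correlated at 0.0851 to 0.198 in knockouts and at -0.0208 to 0.0465 in controls. Members shown by library were the 6 with the smallest p in each genotype comparison, the 8 with the highest level per length in each tissue and the 6 with the largest tissue difference in each direction, except for 1 that is not reported here. Outside the family, at most 2 genes per list and comparison were named, by smallest p. Members and lists were chosen with earlier results of these data known.

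Alternatives were RLE scaling, total counts, no filter, a minimum of 1 CPM in 4 libraries, DESeq2 1.42.0, limma 3.58.1 (voom), a fit of all 16 libraries, the mouse as a block, and leaving out each mouse. Leaving out only the fat library of mouse 138, and DESeq2 without mouse 138, were chosen after seeing the data. Promoters came from RefSeq (GRCm38.p6), and the 250 bases before the start were searched on both strands.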

Additional observations from a re-analysis of the deposited data

Results flagged for a closer look

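In 5 of 54 groups of 4 libraries checked for a named member, 1 library lay far from the other 3, and chance alone marks about 1 group in 20. In fat the 2 cases were controls: Cxcl13 at 13.9 CPM in mouse 131, against 1.43 to 1.68 CPM in the other controls, and Cxcl14 at 54.56 CPM in mouse 138, against 2.96 to 3.31 CPM. In muscle, Ccl6 stood at 5.571 CPM in knockout mouse 29, below 7.51 to 7.88 CPM in the other knockouts. Cxcr4 was marked in both genotypes, at 1.796 CPM in knockout mouse 958, below the other knockouts, and at 3.851 CPM in control mouse 131, above the other controls.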

How the results depend on the processing

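With each mouse left out in turn, 25 to 26 members passed the filter in fat and 13 in muscle, 0 members were called by genotype in either tissue or in the interaction, and 19 to 22 members were called higher and 2 to 3 lower in fat than in muscle. Over the other settings, 18 to 28 members were called higher in fat. Scaling by total counts left 0 members lower in fat, with log2 fold changes of 0.629 for Ccl25 and 0.233 for Ccl27a. Without a filter on low counts, 1 member, Cxcl12, was called higher in knockout muscle. With the mouse as a block, 19 members were higher and 3 lower in fat and 0 passed the interaction. Ccl11 lost its call (adjusted p = 0.0976), and the block changed no other call. A mean of at least 1 CPM would have kept 19 members in fat and 12 in muscle, and a count in every library 31 and 19. DESeq2 gave no adjusted p for Cxcl13 and Cxcl14 by genotype in fat or for Cxcl14 between tissues.

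Directions by genotype that turned belonged to members with no call. With each mouse left out in turn, the log2 fold change of Cxcl14 in muscle ranged between -0.0133 and 0.177. In fat the ranges were -0.478 to 0.00662 for Ccl9, -0.494 to 0.0229 for Ccl6, -0.726 to 0.111 for Ccl5, -0.191 to 0.187 for Cxcr3, -0.251 to 0.202 for Ccl11 and -2.28 to 0.457 for Cxcl14. The turns came without mouse 29 (Cxcl14 in muscle), mouse 11 (Ccl9 and Ccl6), mouse 131 (Ccl5), mouse 138 (Cxcl14), mice 137, 138 and 960 (Cxcr3: -0.0430, -0.0318 and -0.191) and mice 138, 958 and 29 (Ccl11: -0.251, -0.0753 and -0.0154). DESeq2 without mouse 138 gave 0.458 for Cxcl14, -0.252 for Ccl11 and -0.0332 for Cxcr3. The causes were not tested. Members with few counts per library are limited by depth.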

Other observations

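In muscle, all ligands summed to 62.8 ± 4.66 CPM per kb in knockouts and 55.9 ± 4.42 CPM per kb in controls, and in fat to 109.8 ± 22.1 CPM per kb in knockouts and 124 ± 21.8 CPM per kb in controls (SD, n = 4 each). The ranges of these sums overlapped between genotypes, at 57 to 67.1 CPM per kb in knockout muscle and 50.5 to 61.2 CPM per kb in control muscle, and at 89.4 to 133 CPM per kb in knockout fat and 92.8 to 141 CPM per kb in control fat. In control fat, Ccl11, Ccl6 and Cxcl12 made up between 39.9% and 70.3% of the ligand sum, with the lowest share in mouse 138, and in knockout fat between 62.2% and 66.2%.

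Among signalling genes, Gnai3, an inhibitory G protein subunit, was at 62.1 ± 3.84 CPM in knockout fat and 75.9 ± 2.14 CPM in control fat (SD, n = 4 each, log2 fold change -0.30, unadjusted p = 0.0047). In muscle, Tlr2, a receptor upstream of MyD88, was at 1.94 ± 0.549 CPM in knockouts and 1.09 ± 0.258 CPM in controls (log2 fold change 0.80, unadjusted p = 0.013). Neither passed the edgeR adjusted threshold.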
